A study of Mus musculus with 7 samples.

Results

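Universal adventitial fibroblasts are the fibroblasts that sit in the outer coat of vessels in many organs, and 10 genes that mark them were followed here in cancer-associated fibroblasts (CAFs) of pancreatic tumors: Pi16, Dpp4, Ly6c1, Ly6a, Cd34, Cd248, Dpt, Tnxb, Svep1 and Hmcn2. The genes were found by symbol among the 12771 genes counted in the CAFs, and 10 of 10 were listed. They were selected on their measured counts in the groups below, with the fold change between those groups already known, so the values of that contrast are given as a description, with no test. The CAFs came from orthotopic tumors that KPC cells, a mouse pancreatic cancer line, formed in the pancreas of male C57BL/6 mice (C57BL/6 J in the study's methods) injected at 8 weeks of age. The KPC cells carried either a lentiviral short hairpin RNA against Brca2 (shBrca2, 4 libraries, replicates 1 to 4) or a non-targeting hairpin in the same pLKO.1 vector (shControl, 3 libraries, replicates 1, 2 and 4), both under puromycin selection, and tumors were taken 2 to 3 weeks later. CD45+ and EpCAM+ cells were depleted, live CD45-/CD31-/EpCAM-/PDPN+ cells were sorted, 1 mouse per library, and their poly(A) RNA was sequenced from the 3′ end. The hairpin was thus in the cancer cells, the CAFs belonged to the host mice and were not engineered, and both groups rest on the same KPC line.

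In single-cell atlases of mouse tissue, a fibroblast state marked by Pi16, Dpp4, Cd34 and the Ly6 proteins recurs in nearly every organ. It lies around vessels, is poor in contractile genes, and is often placed at the start of trajectories that lead to more specialized or activated fibroblasts. A sister state marked by Col15a1 lies nearer the basement membrane, and activated fibroblasts in tumors carry Acta2, Lrrc15 or Postn. The surface and enzyme markers are Pi16, Dpp4, Ly6c1, Ly6a, Cd34 and Cd248. Pi16 is a peptidase inhibitor of the CAP superfamily, and Dpp4, also called CD26, is a dipeptidyl peptidase. Ly6c1 and Ly6a are lipid-anchored proteins of the Ly6 family (Ly6a is Sca-1), Cd34 is a sialomucin, and Cd248 is also called endosialin. The matrix markers are Dpt (dermatopontin), Tnxb (tenascin-X), Svep1, a large adhesive protein, and Hmcn2 (hemicentin-2). Several of them are not private to fibroblasts, since endothelial cells make Cd34, Ly6a and Ly6c1 and pericytes make Cd248.

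5 members had a searched motif in their promoter, and the upstream sequence is shown for the 4 of them whose match lies outside the gene (the match of Tnxb lies inside it), because the members were lower together. RefSeq on GRCm38.p6 gave 9 start sites for 8 of the 10 members, and Ly6a and Cd248 had none there. In the 250 bases before each start site, 5 motifs were searched on both strands, those of AP-1, TEAD, the TATA box, the hypoxia response core and the GC box, whose letters follow below. Capitals mark the matches, each run is read 5′ to 3′ on the strand of the gene, and bases inside the gene were left out.
Hmcn2: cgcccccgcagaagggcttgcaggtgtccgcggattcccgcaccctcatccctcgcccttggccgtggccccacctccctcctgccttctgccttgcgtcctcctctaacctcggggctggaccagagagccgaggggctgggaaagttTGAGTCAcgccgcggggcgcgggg
Svep1: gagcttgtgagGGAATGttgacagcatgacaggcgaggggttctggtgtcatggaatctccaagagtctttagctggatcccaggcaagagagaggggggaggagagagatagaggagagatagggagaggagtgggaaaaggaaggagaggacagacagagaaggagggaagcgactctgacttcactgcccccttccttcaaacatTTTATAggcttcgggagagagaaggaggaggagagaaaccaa
Dpp4: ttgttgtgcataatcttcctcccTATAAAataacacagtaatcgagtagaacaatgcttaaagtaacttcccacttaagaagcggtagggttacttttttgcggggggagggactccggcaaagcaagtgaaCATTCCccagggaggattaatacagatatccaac
Ly6c1: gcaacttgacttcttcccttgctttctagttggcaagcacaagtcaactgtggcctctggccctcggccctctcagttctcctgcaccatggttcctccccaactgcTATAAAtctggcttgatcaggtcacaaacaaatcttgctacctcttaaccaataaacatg
The Hmcn2 stretch is chr2:31314082-31314254 on the plus strand, with an AP-1 match 101 to 95 bases before the start site. The Svep1 stretch is chr4:58206597-58206846 on the minus strand, with a TEAD match 239 to 234 bases before the start site and a TATA box, on the other strand, 42 to 37 bases before it. The Dpp4 stretch is chr2:62412316-62412481 on the minus strand and holds a TATA box 227 to 222 bases and a TEAD match on the other strand 118 to 113 bases before the start site. The Ly6c1 stretch is chr15:75048921-75049087 on the minus strand, with a TATA box 143 to 138 bases before the start site.

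No motif was shared by most members. The AP-1 letters, TGANTCA, were found in 2 of the 9 member promoters (Hmcn2 and Tnxb, whose match lay inside the gene), against 6.75% of all 32851 mouse promoters in the same table. The TEAD letters, GGAATG, were in 2 (Dpp4 and Svep1) against 12.6% of all promoters. The TATA box, TATAAA, was in 3 (Dpp4, Ly6c1 and Svep1) against 12.4%. The hypoxia core, ACGTG, was in 0 of 9 member promoters against 16.6% of all. The GC box, GGGCGG, was in 0 of 9 as well, against 32.7%. A match of letters describes the sequence and is not a binding site.

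The libraries held 1898679 to 5990579 counts each, and the ranges of the groups overlapped. All values below are normalized counts, the deposited counts divided by DESeq2 size factors, and fold changes are shBrca2 over shControl on the log2 scale. Where 7 values are given for a gene, they stand in the order shControl replicates 1, 2 and 4, then shBrca2 replicates 1 to 4. A gene was called changed at a DESeq2 adjusted p below 0.1, a log2 change past 0.5 either way and an average normalized count above 5. By that rule 673 of 12768 genes (5.27%) were called lower and 481 (3.77%) higher, and scaling by total counts moved the median of all genes by 0.11 on the log2 scale and changed these numbers to 502 lower and 708 higher. Brca2 itself does not check the labels here, and its normalized counts overlapped, at 10.2 to 17.7 in shControl and 8.63 to 14.6 in shBrca2 CAFs. Among the members, shBrca2 replicate 2 stood apart from the other shBrca2 libraries and shControl replicate 2 lay lowest among the controls.

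All 10 adventitial markers were lower in shBrca2 CAFs. All 10 were called lower, against 5.27% of all genes, and in 9 of 10 every shBrca2 library lay below every shControl library, which held for 9.29% of all genes. Both counts follow from how the markers were selected, and nothing is read from them. The control mean was 1.76 (Cd34) to 5.36 times (Hmcn2) the shBrca2 mean, with a median of 3.56 times, and the median log2 fold change was -1.83, against 0.01 over all genes. Together the 10 genes took 1.15%, 0.76% and 1.08% of all counts in the controls, and 0.29%, 0.51%, 0.35% and 0.26% in the shBrca2 libraries. These are bulk libraries, in which fewer adventitial cells and less RNA per cell cannot be told apart.

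**Figure D1:**
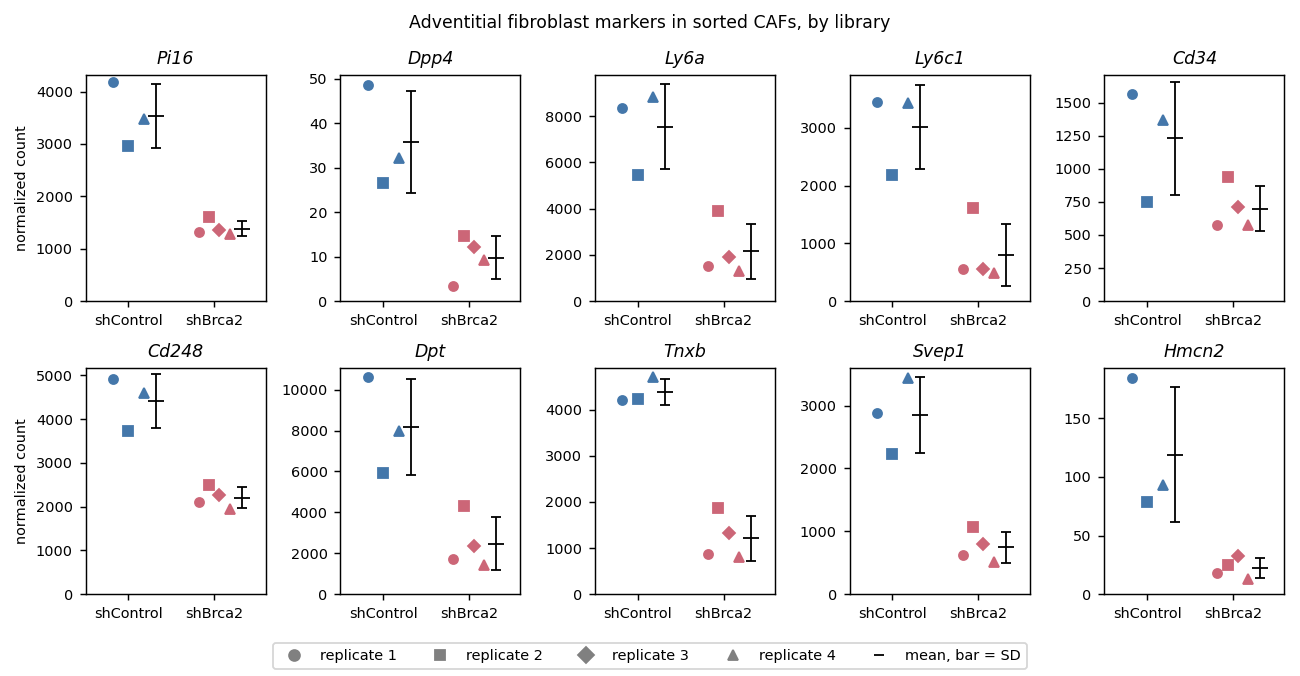
Normalized counts (linear y axes, starting at 0) of the 10 adventitial markers in 3 shControl (blue) and 4 shBrca2 (red) libraries; each symbol is 1 library, and the line with bars is the mean with SD. In 9 panels the groups are apart, and in the Cd34 panel shControl replicate 2 (750.2) lies below shBrca2 replicate 2 (937.3).

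Pi16, the gene that gives the adventitial state its usual name, stood at 4179, 2959 and 3469.9 normalized counts in shControl CAFs. It had 1313, 1603, 1352 and 1276 in shBrca2 replicates 1 to 4. Every shBrca2 library was below every control, and the shBrca2 libraries had the lowest coefficient of variation of the 10 markers, 10.7%. The means were 3536 ± 612 (SD, n = 3) and 1386 ± 148 (SD, n = 4), and the log2 fold change was -1.35 ± 0.17 (SE). Pi16 lies at chr17:29318796-29328903 on the plus strand of GRCm38.p6.

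Dpp4, the dipeptidyl peptidase that trims chemokines such as CXCL12, had 48.7, 26.6 and 32.1 normalized counts in the shControl libraries. In shBrca2 replicates 1 to 4 it had 3.44, 14.6, 12.1 and 9.15. The groups did not overlap, but this was the most sparsely counted marker, with 4 to 57 raw counts per library, so counting error is a large part of its spread. Its log2 fold change was -1.87 ± 0.47 (SE). The gene spans chr2:62330073-62412315 on the minus strand.

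The Ly6 pair lies on chromosome 15, Ly6a at chr15:74994877-74998031 and Ly6c1 at chr15:75044018-75048920, both on the minus strand. Ly6a stood at 8357, 5436 and 8819 normalized counts in shControl CAFs and at 1512, 3899, 1908 and 1291 in shBrca2 CAFs. Ly6c1 had 3454, 2184 and 3427 in the controls and 557.6, 1608, 552.7 and 484.8 in shBrca2. For both genes shBrca2 replicate 2 was far above the other shBrca2 libraries, at 2.48 times their mean for Ly6a and 3.02 times for Ly6c1, and still below the lowest control. The log2 fold changes were -1.81 ± 0.34 (SE) for Ly6a and -1.91 ± 0.53 (SE) for Ly6c1, and without shBrca2 replicate 2 they were -2.27 and -2.51.

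Ly6c1 shares nearly all of its 3′ end with a neighbour. In GENCODE vM39 the last 300 bases of Ly6c1 and Ly6c2, a paralog known from monocytes, differ at 6 positions and are 98.0% identical, so reads could have been assigned to either gene and the Ly6c1 values are uncertain to that extent. Ly6c2 was listed with 10.2, 5.06 and 14.6 normalized counts in shControl and 1.72, 2.91, 0 and 0 in shBrca2 libraries, a small fraction of Ly6c1. The end of Ly6a is 54.3% identical to that of Ly6c1 and 52.7% identical to that of Ly6e, so no such limit was seen for Ly6a against these genes.

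Cd34, the sialomucin also found on endothelial and blood progenitor cells, was the marker with the smallest difference. It had 1567, 750.2 and 1371 normalized counts in shControl and 573.1, 937.3, 709.8 and 574.3 in shBrca2 libraries. The groups overlapped, since shControl replicate 2 lay below shBrca2 replicate 2. The log2 fold change was -0.82 ± 0.27 (SE), and it went from -0.61 without shControl replicate 1 to -1.07 without shControl replicate 2. Cd34 was no longer called without shControl replicate 1, shControl replicate 4, shBrca2 replicate 1 or shBrca2 replicate 4. It lies at chr1:194938821-194961292 on the plus strand.

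Cd248, the lectin-like receptor of perivascular stroma, stood at 4909, 3723 and 4591 normalized counts in shControl CAFs. It had 2113, 2504, 2268 and 1940.3 in shBrca2 CAFs, all below the lowest control. The means were 4408 ± 614 (SD, n = 3) and 2206 ± 239 (SD, n = 4), and the log2 fold change was -0.998 ± 0.16 (SE). The gene is short and lies at chr19:5068078-5070640 on the plus strand.

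The matrix markers had larger fold changes than Cd34 and Cd248. Tnxb, whose tenascin-X binds collagen fibrils, was the most even marker among the controls, with 4209, 4220.3 and 4709 normalized counts and a coefficient of variation of 6.52%. It had 869.2, 1858, 1318 and 799.9 in shBrca2 replicates 1 to 4, so the highest shBrca2 library was less than the lowest control by a factor of 2.27. Its log2 fold change was -1.85 ± 0.27 (SE), and it lies at chr17:34660453-34719815 on the plus strand. Dpt, whose product binds decorin and speeds collagen fibril assembly, had 10607, 5909 and 7968 in shControl and 1713, 4323, 2378 and 1436 in shBrca2 libraries. The groups of Dpt did not overlap, and its log2 fold change was -1.73 ± 0.34 (SE) (chr1:164796663-164824274, plus strand).

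Svep1, a ligand of integrin α9β1 and of PEAR1, had 2887, 2224 and 3438 normalized counts in shControl CAFs. In shBrca2 replicates 1 to 4 it had 619.6, 1063, 801.4 and 505.1, with no overlap. Its log2 fold change was -1.93 ± 0.26 (SE), and the gene lies at chr4:58042796-58206596 on the minus strand. Hmcn2, a matrix protein of basement membranes and a relative of the fibulins, had the largest fold change of the markers. It had 184.5, 78.4 and 93.4 in shControl and 18.1, 24.5, 32.8 and 13.2 in shBrca2 libraries, a log2 fold change of -2.46 ± 0.38 (SE) (chr2:31314255-31460738, plus strand). The control spread of Hmcn2 was also the widest, and without shControl replicate 1 its log2 fold change was -2.0.

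The strand of counting was not given in the sources used here, and in GENCODE vM39 the exons of 8 markers share between 40 (Svep1) and 491 bases (Cd34) with a gene on the opposite strand. Ly6c1 and Cd248 share 0. The markers varied together from mouse to mouse within a group. shBrca2 replicate 2 was the highest of the shBrca2 libraries for 9 of 10 markers, the exception being Hmcn2, where replicate 3 was higher. shControl replicate 2 was the lowest control for 9 of 10, the exception being Tnxb, where replicate 1 was lower. shBrca2 replicate 4 was lowest for 8 of 10 and replicate 1 for Dpp4 and Cd34.

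**Figure D2:**
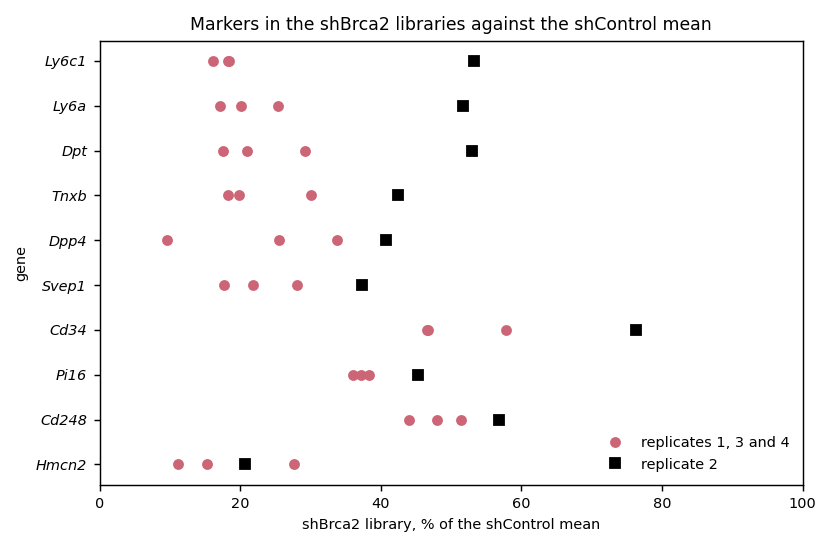
Normalized count of each marker in each shBrca2 library as a percentage of the shControl mean (x axis, linear from 0 to 100%), with replicate 2 as black squares and replicates 1, 3 and 4 as red circles. Replicate 2 lies to the right for 9 markers, at up to 76.2% of the control mean for Cd34, and within the others for Hmcn2 (20.6%).

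The distance of shBrca2 replicate 2 from the other shBrca2 mice was not the same for each marker. Its median level was 48.5% of the control mean over the 10 markers, against 22.6% for the mean of the other shBrca2 libraries. The ratio of replicate 2 to the mean of the others ran from 1.15 (Hmcn2) to 3.02 (Ly6c1), with 1.19 for Cd248, 1.22 for Pi16, 1.87 for Tnxb and 2.35 for Dpt. Without shBrca2 replicate 2 the median log2 fold change of the markers was -2.15, and without shControl replicate 2 it was -1.96.

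Other genes of the adventitial state were lower too. A list of 32 further adventitial genes held 15 that were called lower (against 5.27% of all genes) and 0 called higher (against 3.77%). 30 of the 32 had a negative log2 fold change, against 6276 of all 12771 genes, and the median was -1.05. For 12 every shBrca2 library lay below every control, which held for 9.29% of all genes. The list was drawn up with results of these data known, so it is not independent of the markers. Without shBrca2 replicate 2 the number called lower was 18 (674 over all genes), and without shControl replicate 2 it was 19 (695 over all genes). It was 10 (354 over all genes) without shBrca2 replicate 1, the fewest when 1 library was left out.

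Clec3b, which encodes the plasminogen-binding protein tetranectin, had 4740, 1402 and 4394 normalized counts in shControl and 474.2, 1021, 837.6 and 443.1 in shBrca2 libraries. It fell by 2.34 ± 0.55 on the log2 scale (SE, DESeq2 adjusted p = 0.00118), and shControl replicate 2 was again the lowest control. Pcsk6, a proprotein convertase, had 328.0, 189.8 and 163.4 in shControl and 33.6, 76.9, 55.3 and 40.7 in shBrca2 libraries, a log2 fold change of -2.13 ± 0.33 (SE, adjusted p = 6.36e-08). Col14a1, a collagen that coats fibrils, had 1936, 1259 and 1366 against 275.4, 651.7, 400.7 and 253.1, a log2 fold change of -1.94 ± 0.31 (SE, adjusted p = 1.67e-07). In these genes, as in most markers, shBrca2 replicate 2 was the highest of its group and did not reach the controls.

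Scara5, a ferritin receptor, had 528.7, 134.1 and 467.9 normalized counts in shControl and 74.0, 148.0, 107.1 and 52.9 in shBrca2 libraries. Its groups overlapped, and its log2 fold change of -1.98 ± 0.60 (SE) was called (adjusted p = 0.0192). The call was lost without shControl replicate 1 (-1.66, adjusted p = 0.178), without shControl replicate 4 (-1.80, adjusted p = 0.140) and without shBrca2 replicate 1 (-1.87, adjusted p = 0.143). The other called genes of the list, from Tppp3 at -1.83 to Mfap5 at -0.74, are marked in the plot of further adventitial genes by library. Genes of the list that were not called were named after their values were seen. Among them Il33, an alarmin of adventitial cells, had a log2 fold change of 0.12 ± 0.19 (SE, adjusted p = 0.839) and Wnt2 one of -0.01 ± 0.19 (SE, adjusted p = 0.965).

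**Figure D3:**
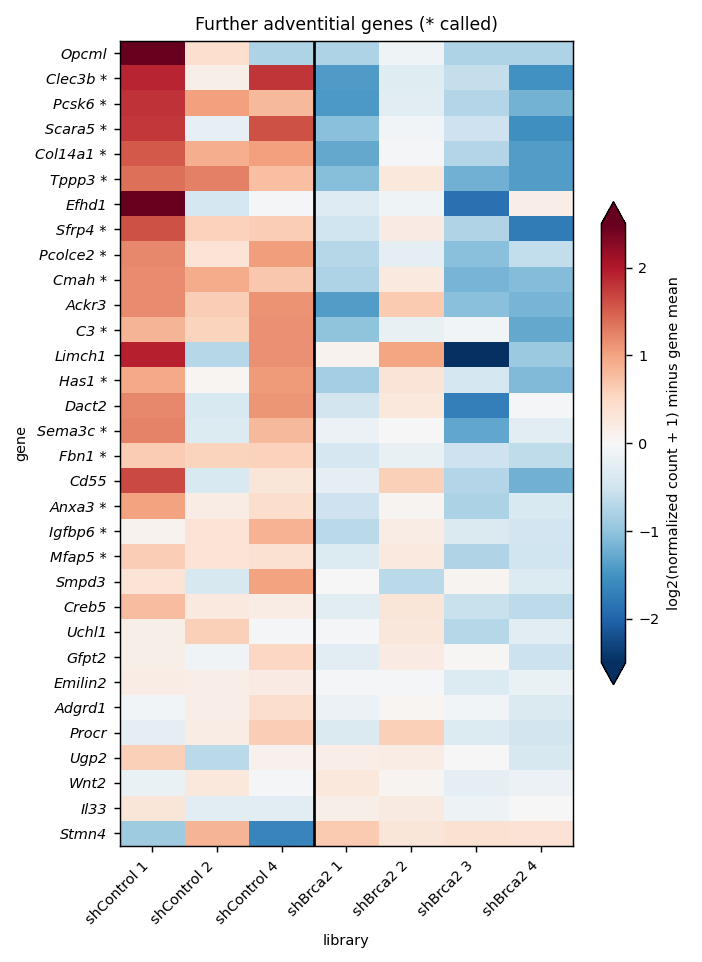
Level of 32 further adventitial genes (rows, ordered by fold change) in the 7 libraries (columns), as log2(normalized count + 1) minus the mean of the gene; red is above and blue below that mean, the color scale is cut at both ends, and an asterisk marks the 15 genes called lower. The upper rows are red in the shControl columns and blue in the shBrca2 columns, with shBrca2 replicate 2 paler than the other shBrca2 libraries.

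The sister state was examined next. Of 15 genes of Col15a1 universal fibroblasts, 6 were called lower and 0 higher, and the median log2 fold change was -0.69. In this list 14 of 15 were negative, against 6276 of all 12771 genes. Counts of calls in this list and in those below stand beside 5.27% of all genes called lower and 3.77% called higher. These lists, too, were drawn up with results of these data known. Smoc2, a matricellular calcium-binding protein, fell by 1.17 ± 0.21 on the log2 scale (SE, DESeq2 adjusted p = 3.61e-06). Cygb, which encodes cytoglobin, had 3909.6, 3694 and 4442 normalized counts in shControl and 1839.9, 2046, 2012 and 2062 in shBrca2 libraries, a log2 fold change of -1.01 ± 0.13 (SE, adjusted p = 2.19e-11). Hsd11b1, which regenerates active glucocorticoid, had a log2 fold change of -1.12 ± 0.25 (SE, adjusted p = 0.000532). Abca8a, a lipid transporter, was called at -1.14 ± 0.32 (SE, adjusted p = 0.00884), and was lost without shControl replicate 1 (-0.79, adjusted p = 0.185). Col15a1 itself, the defining gene, was at -0.32 ± 0.19 (SE, adjusted p = 0.382) and was not called.

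The activated fibroblast genes that were called went in both directions. Of the 18 listed, 2 were called lower and 3 higher, with a median log2 fold change of 0.36. Of the 18, 4 had a negative log2 fold change, against 6276 of all 12771 genes, and most of the positive changes were not called. The list median was 0.13 without shControl replicate 4. Inhba, the activin A subunit, rose by 2.24 ± 0.45 on the log2 scale (SE, DESeq2 adjusted p = 0.000115), from 10.2, 24.0 and 7.78 normalized counts in shControl to 98.1, 72.9, 44.9 and 38.6 in shBrca2. Comp, a matrix protein of tendon and cartilage, fell (-1.99 ± 0.41, SE, adjusted p = 0.000101), as did Itga11, a collagen receptor (-1.19 ± 0.20, SE, adjusted p = 1.11e-06). Acta2 and Runx2 were called higher at 1.07 ± 0.32 (SE, adjusted p = 0.0184) and 0.99 ± 0.33 (SE, adjusted p = 0.0525). Acta2 was lost without shControl replicate 4 (0.76, adjusted p = 0.168) and without shBrca2 replicate 4 (0.99, adjusted p = 0.102), and Runx2 without either of these or without replicate 1 of either group (adjusted p from 0.196 to 0.288). The number called higher ran from 1 to 6 when 1 library was left out, with 1 without shControl replicate 4 or shBrca2 replicate 4 and 6 without shControl replicate 2.

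**Figure D4:**
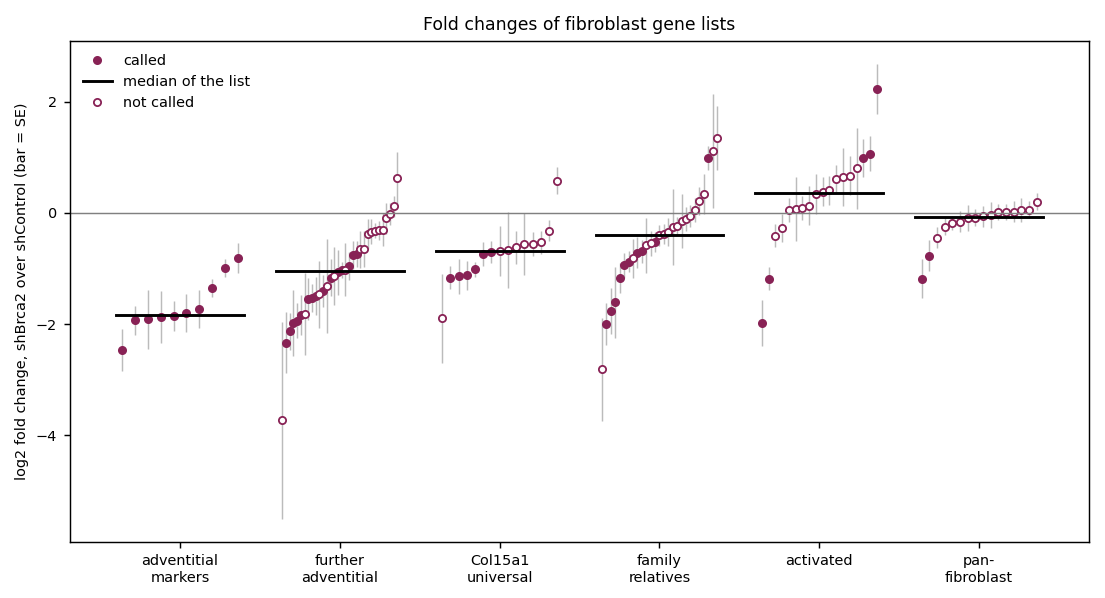
Log2 fold changes (y axis, shBrca2 over shControl, gray bars are the SE) of every listed gene in 6 fibroblast gene lists; filled points were called, open points were not, and the black line is the median of the list. The medians go from -1.83 for the adventitial markers over -1.05 and -0.69 for the further adventitial and Col15a1 lists to 0.36 for the activated and -0.08 for the pan-fibroblast list, whose sign is positive with size factors from total counts or from that list and without shControl replicate 2.

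Relatives of the markers gave a mixed picture by family. Of 27 listed relatives, 9 were called lower and 1 higher, with a median log2 fold change of -0.40, and with 1 library left out 5 to 9 were called lower (5 without shBrca2 replicate 4, 6 without shControl replicate 1) and 1 to 3 higher (3 without shControl replicate 2). Among the fibulins, which share the domain makeup of hemicentins, Efemp1 fell from 1839.9, 555.4 and 1266 normalized counts to 215.1, 511.2, 245.2 and 246.0 (log2 fold change -2.0 ± 0.38, SE, adjusted p = 1.68e-05). Fbln7 was lower as well (-1.77 ± 0.41, SE, adjusted p = 0.000797), while Hmcn1, the closest relative of Hmcn2, was at -0.82 ± 0.35 (SE, adjusted p = 0.152) and was not called. Thbd, thrombomodulin, a lectin-like relative of Cd248, fell (-1.17 ± 0.27, SE, adjusted p = 0.00081). Dpp7, a lysosomal dipeptidyl peptidase, fell as well (-0.94 ± 0.23, SE, adjusted p = 0.00164). Plaur, the urokinase receptor, which has the same 3-finger fold and lipid anchor as the Ly6 proteins, rose from 327.1, 546.5 and 332.7 to 765.0, 865.0, 683.9 and 856.8 (0.98 ± 0.22, SE, adjusted p = 0.000469). It was the exception among these relatives, and the others were named after their values were seen. Ly6e (-0.71), Ly6i (-1.61) and Cd59a (-0.69) were called lower, and each lost that call without shControl replicate 1. Of 15 fits, the main one included, Cd59a was called in 12, Ly6e in 6 and Ly6i in 3. Ly6i lost its call whichever library was left out. Ly6e kept its call in those fits only without shBrca2 replicate 2, and lost it with edgeR and with total-count factors. Ly6h (-0.58, adjusted p = 0.62) and Ly6k (-0.25, adjusted p = 0.91) were not called. Ly6c2 (-2.82, adjusted p = 0.0234) was not called only because its mean normalized count, 4.93, lay below 5. Each of its shBrca2 libraries was below every control.

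Some near relatives were not called, and these were named after their values were seen. Fap, the nearest relative of Dpp4 and a marker of activated fibroblasts, had a log2 fold change of 0.05 ± 0.22 (SE, adjusted p = 0.942). The other tenascins, Tnc and Tnn, were at 0.34 ± 0.36 (SE, adjusted p = 0.714) and 1.35 ± 0.58 (SE, adjusted p = 0.18), against -1.85 for Tnxb. Podxl, a sialomucin of the Cd34 family, was at -0.14 ± 0.49 (SE, adjusted p = 0.933). Whether these genes differ from the markers in their response was not tested.

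Binding partners and substrates of the markers were followed in a list of 16 genes. Of these 5 were called lower and 1 higher, with a median log2 fold change of -0.24, and 3 to 7 were called lower when 1 library was left out (3 without replicate 1 of either group or shBrca2 replicate 4). Cxcl12, a chemokine cut by DPP4, had 4099, 2178 and 3700.5 normalized counts in shControl and 1635, 2532, 1637 and 1440.2 in shBrca2 libraries. It was called lower (-0.88 ± 0.26, SE, adjusted p = 0.0149) although the groups overlapped, and lost that call without shControl replicate 1 (-0.70, adjusted p = 0.13). Adamts2, a procollagen peptidase, was called at -0.81 ± 0.20 (SE, adjusted p = 0.00257). Decorin (Dcn), the partner of dermatopontin, was called at -0.77 ± 0.28 (SE, adjusted p = 0.0688), and this call was lost without shControl replicate 1, shControl replicate 4, shBrca2 replicate 1 or shBrca2 replicate 4 (adjusted p from 0.223 to 0.354) and with edgeR (0.12). Tgfb1 was called higher at 1.08 ± 0.37 (SE, adjusted p = 0.062), with overlapping groups, and was lost without shControl replicate 1, shControl replicate 4, shBrca2 replicate 2 or shBrca2 replicate 4 (adjusted p from 0.218 to 0.396) and with edgeR (0.111). The receptors of Svep1 were not called, with log2 fold changes of 0.12 ± 0.24 for Itga9, -0.04 ± 0.15 for Itgb1 and 0.14 ± 0.25 for Pear1 (SE).

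Genes expressed by fibroblasts in general were compared as a check on the sort. Of 16 pan-fibroblast genes 2 were called lower, Lum and Dcn, and 0 higher, with a median log2 fold change of -0.08, whose sign was positive with size factors from total counts (0.045) or from this list (0.0015) and without shControl replicate 2 (0.061). Pdpn, the protein of the sort gate, was at -0.25 ± 0.15 (SE, adjusted p = 0.421), Pdgfra at 0.01 ± 0.15 (SE, adjusted p = 0.963) and Col1a1 at -0.04 ± 0.24 (SE, adjusted p = 0.955). Lum was called at -1.18 ± 0.35 (SE, adjusted p = 0.0149). It was lost without shControl replicate 1 (-0.94, adjusted p = 0.115) and with the replicate block (-1.26, adjusted p = 0.501). Each of these fits called 0 of the 16. The summed normalized counts of the list were 200389.9 to 228344 in shControl and 169205 to 208008 in shBrca2 libraries. With size factors taken from this list instead, the median log2 fold change of the markers was -1.78.

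Some markers of other cells were called changed, and their part in the values of the adventitial markers was not tested. Of 7 listed epithelial genes 5 were called higher, Krt7, Krt23, Cldn3, Elf3 and Spint1, and 0 lower, and their sum was 46.1 to 180.9 normalized counts in shControl and 332.2 to 484.5 in shBrca2. Elf3 was at 0 in shControl replicates 2 and 4 and Spint1 in shControl replicate 1, and Cdh1 had 0.854 to 6.33 in shControl and 6.91 to 17.3 in shBrca2 libraries. Of 17 mesothelial genes 3 keratins, Krt8, Krt18 and Krt19, were called higher, and 7 had a negative log2 fold change. The mesothelial sums overlapped, at 6683 to 10006 and 8801 to 9961. Of 11 pericyte genes 3, Notch3, Des and Ndufa4l2, were called higher and 1, Rgs4, lower, and 4 had a negative log2 fold change. The pericyte sums overlapped, at 1022 to 1906 and 1877 to 2427. Of 7 immune genes 2, Cd14 and Csf1r, were called higher, with sums of 229.8 to 316.2 and 470.6 to 521.6. These 2 made up most of the sums, with means of 74.1 and 112.5 in shControl and 171.2 and 248.2 in shBrca2. The other 5 were not called, with log2 fold changes from -0.78 (Laptm5) to 0.52 (Tyrobp). The median of the immune list was -0.11, and its sign was positive in 5 of 14 refits. With 1 library left out, 2 to 4 epithelial genes were called higher (2 without replicate 1 of either group), 2 to 7 mesothelial (7 without shControl replicate 4), 1 to 4 pericyte (1 without shControl replicate 4) and 1 to 2 immune genes (1 without shControl replicate 1). In those fits 0 to 1 mesothelial genes were called lower (1 without shControl replicate 2), and Rgs4 kept its call only without shControl replicate 4 or shBrca2 replicate 2.

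Endothelial cells also make Cd34, Ly6a and Ly6c1, and the part of such cells was not tested. Of 10 listed, Eng was called lower and Flt1 higher, with sums of 1295 to 1842 normalized counts in shControl and 745.0 to 876.6 in shBrca2. With 1 library left out, 1 to 2 were called lower (2 without shControl replicate 2) and 0 to 3 higher (3 without shControl replicate 4), and Flt1 was lost without shBrca2 replicate 1 (0.96, adjusted p = 0.149). Eng, which fibroblasts also express, made up most of this sum, and the other 9 genes summed to 188.8 to 323.0 in shControl and 275.1 to 370.0 in shBrca2. Pecam1, which encodes the CD31 of the sort gate, was near 0, with 5.12, 17.7 and 1.95 in shControl and 1.72, 0.583, 0 and 0 in shBrca2 libraries.

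**Figure D5:**
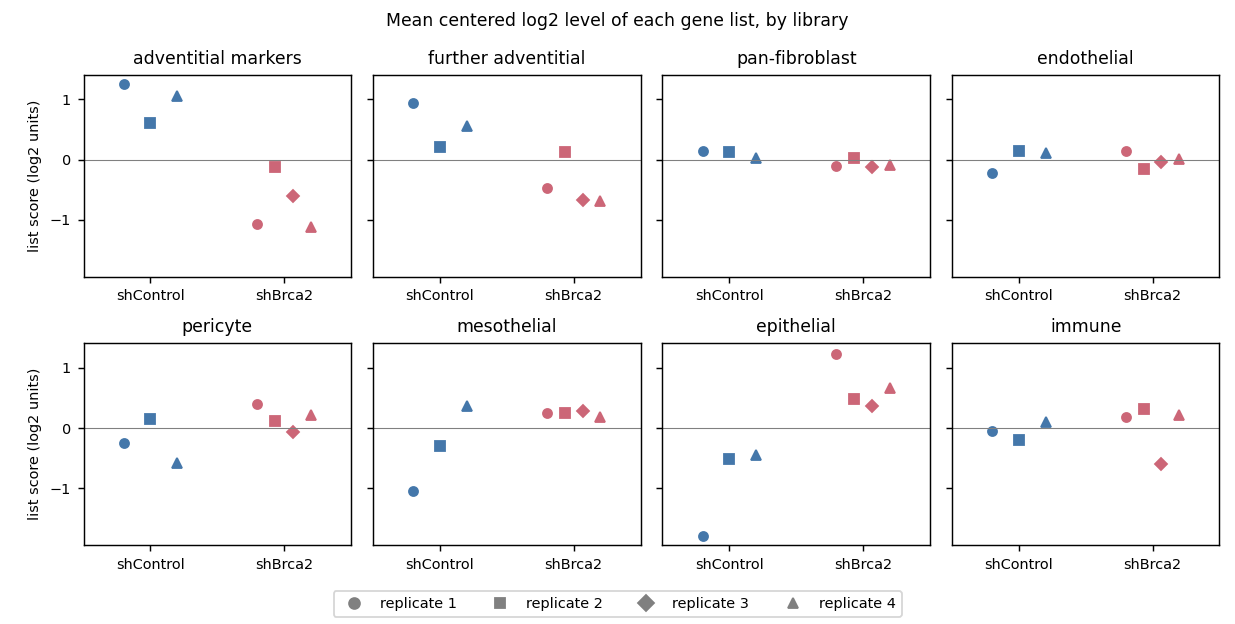
Score of 8 gene lists in each library (y axis, mean over the genes of log2(normalized count + 1) after the mean of each gene was taken off), with shControl in blue, shBrca2 in red and symbols for the replicate number. The adventitial marker scores run from 0.61 to 1.26 in shControl and from -1.12 to -0.12 in shBrca2, the pan-fibroblast scores lie within 0.15 of 0, and the epithelial scores are higher in each shBrca2 library than in any shControl library.

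The genes whose level followed the adventitial markers most closely were then sought among 6726 genes with a mean normalized count over 50. Likeness was the Pearson r of log2(normalized count + 1) with the marker score over the 7 libraries. These points fall into the 2 groups and share their libraries, so r mostly reflects the difference between the groups and is given as a description. The 8 closest were Fhl1, a LIM domain protein (r = 0.998), Entpd2, an enzyme that breaks down extracellular ATP (0.996), Ace, the angiotensin-converting enzyme (0.994), Col14a1 (0.994), Aoc3, a vascular amine oxidase (0.994), Lbp, which binds lipopolysaccharide (0.993), Adh1, an alcohol dehydrogenase that oxidizes retinol (0.993), and Csf2rb2, a cytokine receptor subunit with a close paralog (0.992).

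In each of these genes shControl replicate 2 was the lowest control and shBrca2 replicate 2 the highest shBrca2 library, as in the marker score. Ace stood at 1801, 1349 and 1744 normalized counts in shControl CAFs and at 352.0, 745.5, 582.0 and 387.2 in shBrca2 CAFs. Fhl1 had 213.5, 169.5 and 201.4 against 109.3, 139.3, 124.4 and 107.7, a log2 fold change of only -0.70. The fold changes of the 8 ran from -0.70 (Fhl1) to -1.99 (Csf2rb2), and Col14a1 was the only one that also stood in a list above.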

How the data were processed

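RNA of sorted CAFs from 7 mice (3 shControl, 4 shBrca2) was read from the 3′ end. Per the submitters' processing notes and the study's methods, the authors demultiplexed, trimmed, aligned and counted the reads (the notes list bcl2fastq, cutadapt, STAR 2.4.2a, HTSeq and mm10), and deposited whole-number counts per gene symbol, not normalized. The annotation, the strand setting and the handling of molecular barcodes are not given in the sources used here, so PCR copies may be included. DESeq2 1.42.0 (R 4.3.3) was run on all 12771 genes with a likelihood ratio test of group against an intercept and no covariate, as in the study's methods, with Benjamini-Hochberg adjustment, and 3 genes received no adjusted p. No 2 libraries of a group agreed within sampling noise (mean chi-square per gene 3.16 or more). The code was tested on simulated counts of 12771 genes, of which 200 were changed. It called 207 genes and recovered 73% of the log2 changes of 1 and 99% of those of 2. Of its calls 16.9% were unchanged genes, at the adjusted p threshold of 0.1. With 3 or 4 mice a group, adjusted p-values rest on the spread between these mice.

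The markers and the 11 other gene lists were chosen with earlier results of these data known. Named from each list were up to 4 called genes per direction with the largest fold change and a mean normalized count over 20, or every called gene where 5 or fewer were called. Positions are RefSeq GRCm38.p6, the build that mm10 stands for. The 14 alternatives were edgeR 4.0.16, other size factors, a filter of 10 counts in 3 libraries, no independent filtering, a Wald test, a replicate block and leaving out each library.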

Additional observations from a re-analysis of the deposited data

Results flagged for a closer look

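Among 22 values tested in the 4 shBrca2 libraries, 2 had a single library far from the other three by Dixon's rule, and chance flags about 1 in 20. The normalized count of Ly6c1 was 1608 in shBrca2 replicate 2 and 484.8 to 557.6 in the other shBrca2 libraries, a gap of 0.935 of the whole range. The summed normalized count of the 16 partner genes was 106359 in the same library and 84757 to 86486 in the others, a gap of 0.92 of the range. Ly6c1 in that library was still below the lowest control, 2184, and the partner sum below the lowest control sum, 120280.0.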

How the results depend on the processing

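The log2 fold changes of the 10 markers moved by less than the spread between mice in 140 of 140 refits over the 14 alternatives, and 0 changed sign. Of 168 list medians 18 moved by more than that spread and 8 changed sign. These were the pan-fibroblast median (-0.08) in 3 fits, at 0.045 with total-count factors, 0.0015 with factors from that list and 0.061 without shControl replicate 2, and the immune median (-0.11) in 5, at 0.0098 with total-count factors, 0.45 with the count filter, 0.27 without shControl replicate 1, 0.045 without shBrca2 replicate 1 and 0.072 without shBrca2 replicate 2. With 1 library left out, the number of all genes called lower ran from 354 (without shBrca2 replicate 1) to 695 and the number called higher from 261 (without shBrca2 replicate 1) to 610. It also moved past 1.5 times when shControl replicate 1 (366 and 264) or shBrca2 replicate 4 (372 and 290) was left out and, for genes called lower, when shControl replicate 4 (418) was. For the further adventitial genes these fits called 10 to 19 lower and 0 to 1 higher, the 1 without shControl replicate 2, and 9 to 10 of the markers, with Cd34 the one lost.

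Replicate numbers are shared between the groups, but same-numbered libraries did not deviate together (correlations of their deviations -0.091, -0.127 and -0.14 over 9062 genes). With so few libraries these correlations cannot tell whether the numbers pair the mice or mark shared batches. With the replicate block, 280 genes were called lower and 211 higher, 7 further adventitial genes lower and 6 of the markers, without Ly6c1, Ly6a, Cd34 and Dpt. In that fit shBrca2 replicate 3, which has no control of its number, adds nothing to the group term. Depth limits Dpp4 most, with 4 counts in its lowest library.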
